A study of Mus musculus with 8 samples.

Results

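Major urinary proteins are small secreted lipocalins, barrel-shaped carriers that mouse liver releases into the blood and that pass into urine. There they bind volatile pheromones and release them slowly, and some of them act as scent signals themselves. In the livers of male mice their genes rank among the most strongly transcribed, under the control of pulsed growth hormone through STAT5 and of androgens, glucocorticoids and liver-enriched transcription factors. The genes lie in 1 tandem cluster and fall into a central set of near-identical copies (class A) and a set of older, more diverged copies (class B). The members were all genes whose symbol is Mup or Mup-ps followed by a number, which gave 49 of the 55450 genes in the deposited tables. They comprised 16 class A genes, 6 class B genes (Mup3, Mup4, Mup5, Mup6, Mup20 and Mup21) and 27 pseudogenes.

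Liver RNA was sequenced from 4 control mice, which carried floxed Cebpa alleles (Cebpa fl/fl, Cre-), and from 4 knockout mice (Cre+), whose hepatocytes lacked Cebpa. The product of Cebpa, C/EBP alpha, is a basic leucine zipper factor that binds the control regions of many liver-specific genes. All 8 mice, controls included, were 10 weeks old and matched for body weight, and took a liquid control diet for 5 days followed by 5% (vol/vol) ethanol liquid diet for 4 weeks. Every comparison is therefore between genotypes under ethanol, and mice on the control diet alone are not analysed here. The Cre driver is not given in the sources used here. The labels number the livers 1 to 4 in each group but do not say that they come from separate litters or cages, so the p-values measure the spread between these samples. The labels give no sex. The Y-linked gene Ddx3y was at 16.6 to 25.3 TPM (a level per unit of transcript length and of library size) in the 8 livers, and Xist was at 0 to 0.01 TPM.

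The libraries held 21048350 to 28148744 expected counts. Cebpa itself was at 263.6 to 320.3 CPM (counts scaled to library size, not to gene length) in controls and at 5.44 to 9.26 CPM in knockouts, a log2 difference of -5.38 (SE 0.18, edgeR adjusted p = 4.78e-07). Of 13303 genes tested with edgeR's quasi-likelihood test, 274 passed an adjusted p of 0.05, which is 2.06% of genes in either direction, 1.21% lower and 0.849% higher in knockouts. The 35 tested hepatocyte marker genes summed to 196477 to 220435 CPM in controls and 197064 to 218649 CPM in knockouts, and 1 of them, Serpina1a, passed the test, lower. The next 3 by adjusted p, the urea cycle gene Cps1 and the amino acid catabolism genes Tdo2 and Hpd, had log2 fold changes of -0.62, -0.55 and -0.61 (edgeR adjusted p = 0.0763, 0.111 and 0.116). None of the markers of that list was at 0. Alb alone, at 62850 to 95900 CPM in controls and 85920 to 96110 CPM in knockouts, made up a large part of these sums. Of the 35 genes, 24 had a negative log2 fold change and 11 a positive one (median -0.15). At an unadjusted edgeR p of 0.05, 8 of the 35 were lower and 2 higher, where 8.9% of all genes were lower. The 12 cholangiocyte marker genes summed to 41.2 to 81.8 CPM in controls and 147.4 to 393.5 CPM in knockouts. Of 9 tested, 4 were higher (Pkhd1, Epcam, Spp1 and Krt19). Spp1 alone, at 21.3 to 58.1 CPM in controls and 107.3 to 353.2 CPM in knockouts, made up a large part of these sums. Epcam was at 0.451 to 0.971 CPM in controls and 1.77 to 2.33 CPM in knockouts. Krt19 was at 0.217 to 0.825 CPM in controls and 1.23 to 1.62 CPM in knockouts. The 14 Kupffer cell and macrophage markers overlapped between groups in their sum, at 202.5 to 414.6 CPM in controls and 321.8 to 535.2 CPM in knockouts. None of them was called, but 14 of 14 had a positive log2 fold change (median 0.53, 5 with an unadjusted p below 0.05). The same held for 11 of 11 tested stellate cell markers (median 0.39, 4 with an unadjusted p below 0.05) and 11 of 12 endothelial markers (median 0.22, 3 with an unadjusted p below 0.05), none of them called by edgeR. The share of all genes higher at an unadjusted p of 0.05 was not counted, so these counts of higher genes have no background. In bulk liver, fewer cells of a type and less RNA per cell cannot be told apart, and the part of these other cell types in the Mup results was not tested.

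On mm10, 48 of the 49 members lie on chromosome 4 between 59956804 and 62150863, a span of 2.19 Mb, and Mup-ps22 lies on chromosome 11. All coding members of the cluster but Mup6 are on the minus strand, while 20 of its 26 pseudogenes are on the plus strand. How far the members can be told apart depends on their sequence. The coding sequences of the 16 class A genes were 98.2% to 99.8% identical in the 120 pairs, differing at 1 to 10 positions. Class A and class B genes were 82.7% to 91.4% identical. Mup20, which encodes darcin, the urinary protein by which female mice learn to prefer an individual male's scent, was 90.1% to 91.4% identical to class A genes and 87.1% identical to Mup3. The following 60 coding bases of exon 2 (GENCODE M21, mm10, minus strand, 5′ to 3′) are shown because Mup20 showed no detectable difference between the groups and the groups did not overlap for the other members shown. Capitals mark bases that differ from Mup20. The window was picked so that the least different of the other genes shown had the most differences from Mup20.
Mup20, chr4:62053496-62053555: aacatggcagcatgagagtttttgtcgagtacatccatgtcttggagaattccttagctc
Mup3, chr4:62086816-62086875: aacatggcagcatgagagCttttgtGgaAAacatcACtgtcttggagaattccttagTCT
Mup21, chr4:62150211-62150270: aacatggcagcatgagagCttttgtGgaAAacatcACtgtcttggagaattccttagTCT
Mup7, chr4:60069749-60069808: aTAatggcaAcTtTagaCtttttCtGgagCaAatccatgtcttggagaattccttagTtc
Mup11, chr4:60661746-60661805: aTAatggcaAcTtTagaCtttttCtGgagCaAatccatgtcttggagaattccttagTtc
Mup22, chr4:60820864-60820923: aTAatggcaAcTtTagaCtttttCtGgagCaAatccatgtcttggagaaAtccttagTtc
Within this window Mup3 and Mup21 had the same letters, 9 of them different from Mup20, and Mup7 and Mup11 shared another version with 11 differences from Mup20. Mup22 had 12 differences from Mup20. Among the 6 genes compared, this window separates Mup20 from the others by that choice. Its differences do not stand for the whole coding sequence. Mup7 is not separated from Mup11 there, nor Mup3 from Mup21. Mup-ps19 was not compared here.

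Over whole annotated transcripts, 86.7% of the 50-base windows of Mup3 and 80.7% of those of Mup21 were found in no other gene. For Mup20 the share was 49.5%, with 48.0% of its windows shared with the pseudogene Mup-ps19 and 3.07% shared with class A genes. In class A it ranged from 0% (Mup15, Mup19 and Mup22) to 38.4% (Mup1). All 50-base windows of Mup22 were also found in other class A genes. The deposited values come from RSEM, which divides reads shared by several genes in proportion to a fitted model, and 18 of the 22 coding members had fractional counts in all 8 livers. Levels of single class A genes are therefore uncertain, and the summed counts of class A do not depend on how reads were divided among its members.

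**Figure D1:**
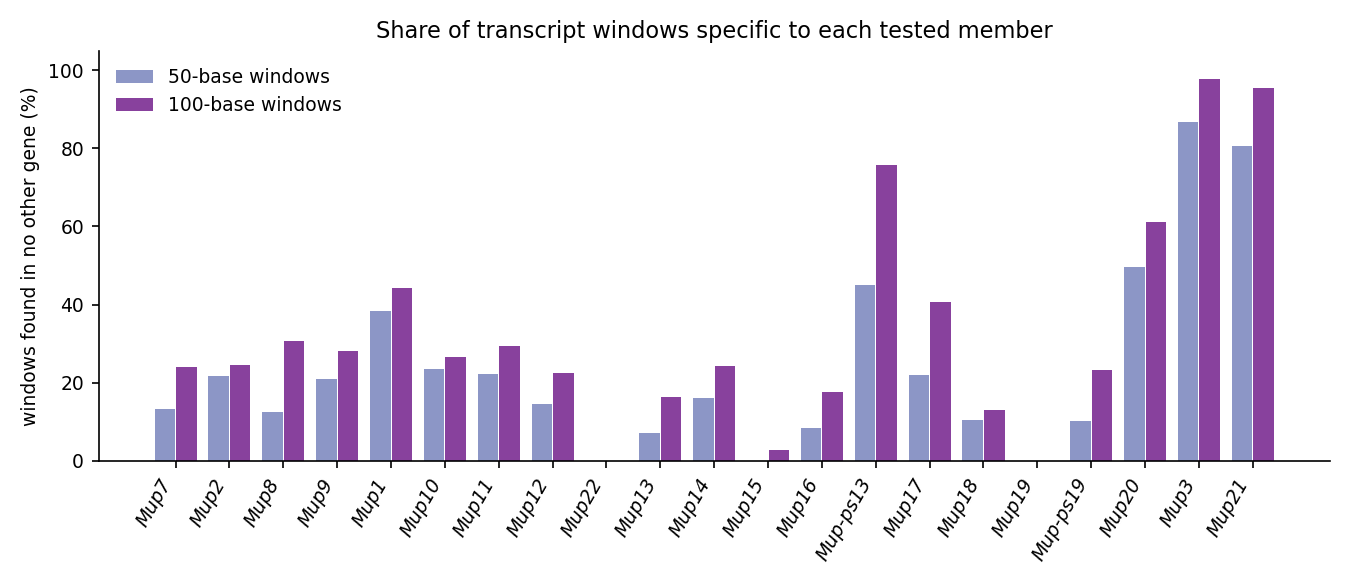
Bars give, for each of the 21 tested members in order along chromosome 4, the percentage of its annotated transcript windows of 50 or 100 bases that occur in no other gene. Mup3 and Mup21 stand highest at both lengths, and Mup22 and Mup19 are at 0% at both.

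Summed Mup expression was lower in knockout livers, and its make-up shifted towards a single gene. Summed over the 49 members, the level was 36220, 45876, 25998 and 30437 TPM in controls 1 to 4 and 13702, 10107, 15812 and 24060 TPM in knockouts 1 to 4. All 4 knockout livers were below all 4 controls, with knockout 4 closest to them. The means were 34633 ± 8585 (SD, n = 4) and 15920 ± 5915 TPM (SD, n = 4), a 2.18-fold difference (two-sided exact permutation test over 70 assignments of the livers, p = 0.0286, the smallest the design allows). The Mup genes took 1.36% to 2.42% of all counts in controls and 0.555% to 1.30% in knockouts. In the edgeR fit across all genes with the members replaced by their sums, the log2 fold change of the total was -1.16 (SE 0.27, adjusted p = 0.0639), which did not pass the threshold. It passed with DESeq2, at -1.17 (adjusted p = 0.000353), and with edgeR without knockout 4, at -1.40 (adjusted p = 0.0242).

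The class A genes, the near-identical central set, summed to 16275, 20715, 11149 and 12488 TPM in controls and to 1792, 1108, 3196 and 6842 TPM in knockouts. The groups did not overlap, and the means differed 4.69-fold (exact permutation test, p = 0.0286, the smallest possible). In edgeR the log2 fold change of their summed counts was -2.28 (SE 0.55, adjusted p = 0.0895), so this sum did not pass the threshold, and knockout 4 lay well above the other knockouts. Without knockout 4 it was -2.89 (adjusted p = 0.0233). The class B genes summed to 14738 to 25077 TPM in controls and 8956 to 17125 TPM in knockouts, and the groups overlapped (exact permutation test, p = 0.0571).

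Mup20 accounted for 29.3% to 34.8% of summed Mup TPM in controls and 67.2% to 85.5% in knockouts. Mup3 accounted for 20.8% to 26.8% in controls and 2.72% to 3.69% in knockouts. The share of class B as a whole was 56.2% ± 1.89 (SD, n = 4) in controls and 81.3% ± 7.91 (SD, n = 4) in knockouts, with no overlap between groups (exact permutation test, p = 0.0286, the smallest possible). With Mup20 left out of the sum, a choice made after seeing the data, the remaining members were 6.06-fold lower in knockouts in TPM (exact permutation test, p = 0.0286), and their summed counts had an edgeR log2 fold change of -2.73 (SE 0.50, adjusted p = 0.0375). Mup20 was left out for its value, so these p-values in part restate that choice. The edgeR call was lost in 6 of the 8 fits that leave out 1 liver, where the adjusted p reached 0.0978, so 1 liver can decide it.

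**Figure D2:**
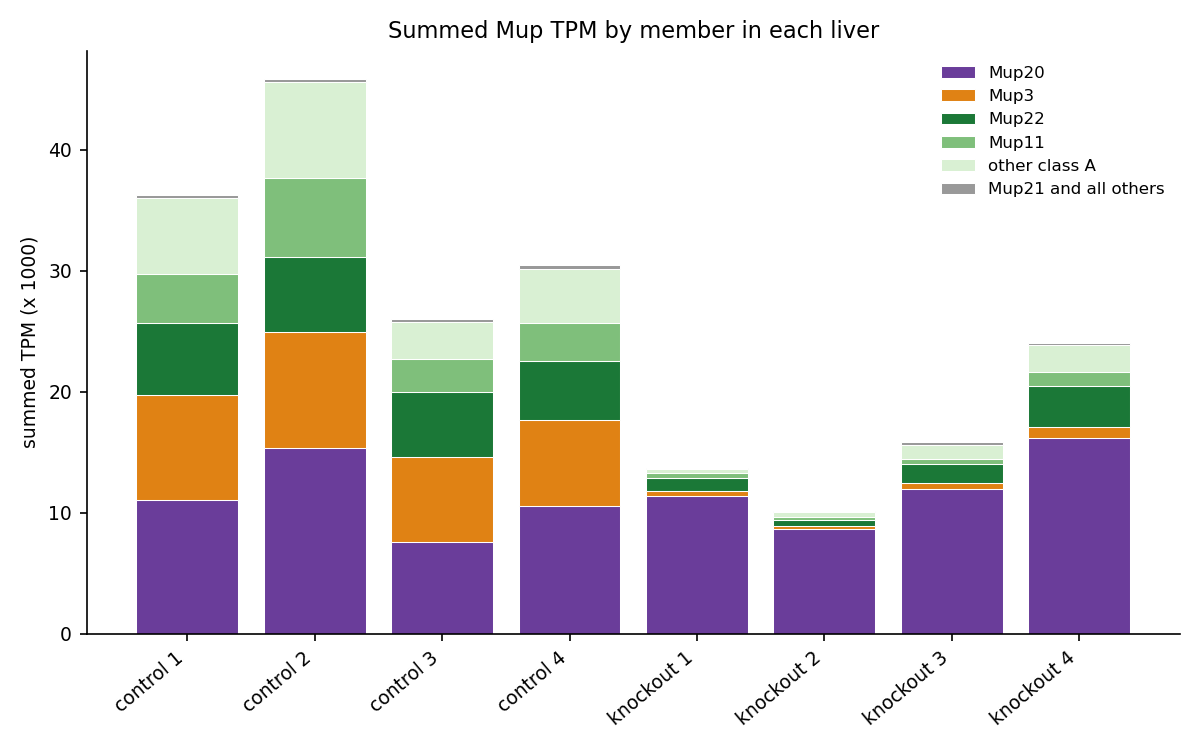
Stacked bars show summed Mup TPM in each liver, divided into Mup20, Mup3, Mup22, Mup11, the other class A genes, and Mup21 with all remaining members. The Mup20 segment has a similar height in both groups while the segments of the other members are smaller in all 4 knockouts, least so in knockout 4.

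Among single members, 21 of the 49 had enough counts to be tested: 16 class A genes, the class B genes Mup3, Mup20 and Mup21, and the pseudogenes Mup-ps13 and Mup-ps19. Of these, 7 were lower in knockouts at an edgeR adjusted p of 0.05 (Mup3, Mup7, Mup21, Mup2, Mup16, Mup11 and Mup12) and 0 were higher, where 1.21% of all genes tested were lower and 0.849% were higher. At an unadjusted p of 0.05, 14 members were lower and 0 higher, against 8.9% of all genes lower. DESeq2 called 13 members lower and 0 higher, against 3% of its genes lower. The 2 groups did not overlap for 12 members, all of them lower in knockouts. Over all genes 5.92% had no overlap and were lower, and 5.52% had none and were higher. The median log2 fold change of the tested members was -2.28, and of all genes 0.00365. Members of the cluster share reads, so these counts are not counts of independent genes.

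Mup20 did not differ detectably between the groups. Its level was 11064, 15345, 7608 and 10588 TPM in controls 1 to 4 and 11387, 8645, 12002 and 16158 TPM in knockouts 1 to 4. The groups overlapped over almost their whole range, with the highest value in knockout 4 and the lowest in control 3. In edgeR the log2 fold change was 0.01 with an SE of 0.24 and a 95% interval from -0.52 to 0.54 (adjusted p = 0.989), and left-out livers and the other settings moved the estimate between -0.16 and 0.18, on both sides of 0. Mup20 was between rank 6 and rank 20 by TPM among all genes in the 8 livers, and 11 genes had a higher mean TPM in knockouts. It lies at 62050234 to 62054158 on chromosome 4, minus strand, and its neighbour on that strand, Mup3, lies at 62083476 to 62087342.

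Mup3, a class B gene whose product is secreted into male urine, was the called member with the smallest adjusted p. It stood at 8692, 9552, 6967 and 7078 TPM in controls and at 421.2, 275.2, 434.3 and 887.5 TPM in knockouts. Every knockout was below every control, with knockout 4 the highest of the knockouts. The mean TPM differed 16.0-fold, and the scaled counts that edgeR tested differed 17.2-fold (log2 fold change -4.11 with an SE of 0.36, edgeR adjusted p = 0.00105), and Mup3 was called in all 8 fits that leave out 1 liver. The ratio of Mup20 to Mup3 TPM was 1.09 to 1.61 in controls and 18.2 to 31.4 in knockouts. The log2 ratio was higher by 4.24 in knockouts on average, with no overlap between groups. The pair was picked after seeing its values, so the ratio is a description.

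Mup21, at the far end of the cluster and 94.8% identical to Mup3 in its coding sequence, was lower at a much smaller level. It was at 129.1, 179.5, 162.8 and 211.4 TPM in controls and 31.5, 36.0, 39.6 and 78.7 TPM in knockouts. The groups did not overlap, and knockout 4 was again highest among knockouts. In the scaled counts that edgeR tested, the knockout level was 3.94-fold lower (log2 fold change -1.98 with an SE of 0.30, edgeR adjusted p = 0.0170), and the call was lost without knockout 2 (adjusted p = 0.0581) and without knockout 3 (adjusted p = 0.0502). The 3 remaining class B genes, of which Mup4 and Mup5 are known mainly from nasal, salivary and tear glands, were nearly silent. Mup4 and Mup5 had no counts in any liver, where the limit a count of 0 allows is 0.107 to 0.143 CPM per liver (3 counts, counting error only), and Mup6 had 5 counts in all, in 2 controls.

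**Figure D3:**
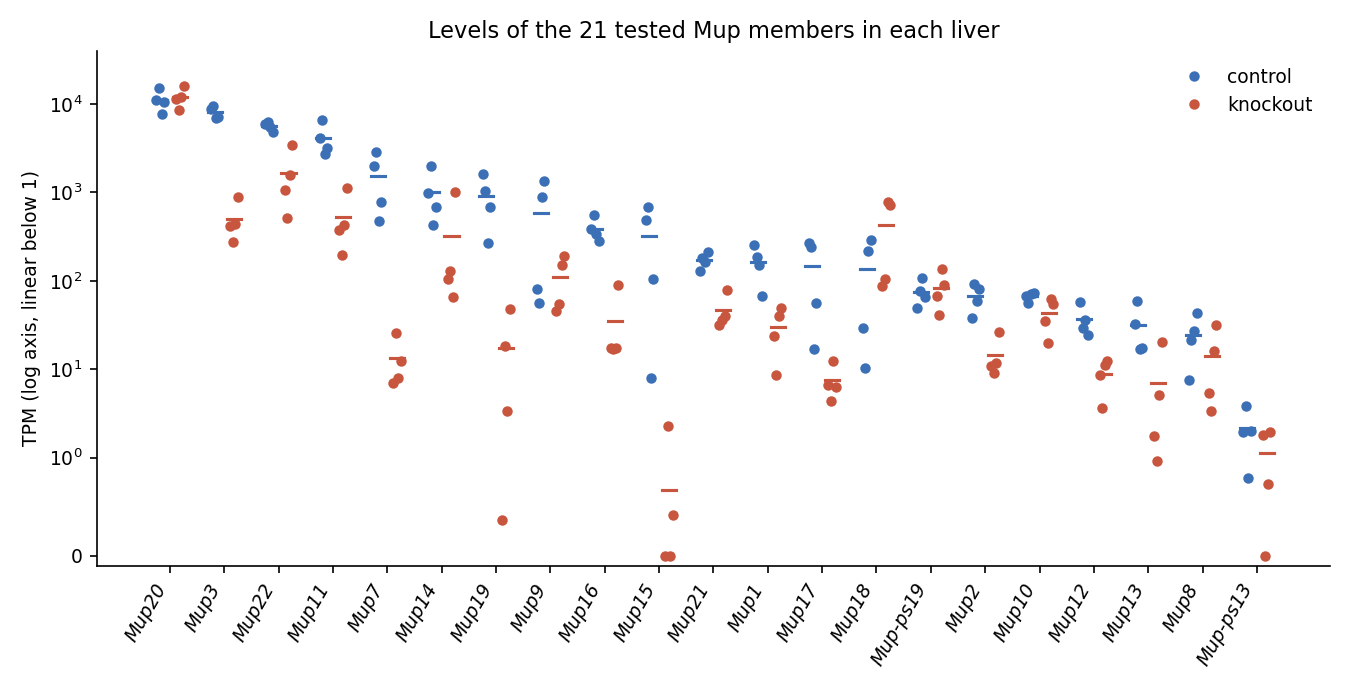
Points give the TPM of each of the 21 tested members in each liver on a log axis that is linear below 1 TPM, with controls in blue, knockouts in red and a short line at each group mean. Members are ordered by their control mean. Mup20 overlaps between groups, and Mup3 and Mup7 are clearly separated.

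In class A the largest called difference was in Mup7. Its level was 1980, 2896, 470.3 and 769.2 TPM in controls and 6.93, 25.6, 7.93 and 12.5 TPM in knockouts. The groups did not overlap, and all knockouts were at a small share of the lowest control. With an SE of 0.85, its log2 fold change of -7.01 passed the test (edgeR adjusted p = 0.0116), and Mup7 was called in all 8 fits that leave out 1 liver. It was not called when control 2 and knockout 4 were both left out (adjusted p = 0.0557). Of its 50-base windows 13.3% were found in no other gene.

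Mup11 and Mup22 were the class A genes with the highest listed levels in controls. Mup11 was at 4090, 6604, 2738 and 3154 TPM in controls and 378.3, 196.6, 430.5 and 1122 TPM in knockouts. Its groups did not overlap, and it passed the test with a log2 fold change of -2.70 (SE 0.52, edgeR adjusted p = 0.0449). Mup22 was at 5910, 6197, 5429 and 4834 TPM in controls and 1060, 509.6, 1587 and 3453 TPM in knockouts. Although its groups did not overlap either, its log2 fold change of -1.86 (SE 0.52) missed the threshold (edgeR adjusted p = 0.119). It was called without knockout 4, at -2.49 (edgeR adjusted p = 0.0198), and with DESeq2 (adjusted p = 0.0199). All of the short windows of Mup22 occur in other class A genes, so its separation from them rests on the model that divided the reads.

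Mup2, Mup12 and Mup16 were the remaining called class A genes, all at lower levels. Mup16 was at 281.8 to 550.1 TPM in controls and 17.0 to 88.7 TPM in knockouts (log2 fold change -3.61, edgeR adjusted p = 0.0448). Mup2 was at 37.7 to 92.8 TPM in controls and 8.99 to 26.4 TPM in knockouts (log2 fold change -2.48, edgeR adjusted p = 0.0242). Mup12 was at 24.1 to 57.1 TPM in controls and 3.63 to 12.3 TPM in knockouts (log2 fold change -2.14, edgeR adjusted p = 0.0464). These calls lie close to the threshold. Leaving out 1 liver ended the call of Mup12 in 8 of 8 fits, of Mup16 and Mup11 in 7 of 8, and of Mup2 in 6 of 8, with adjusted p up to 0.120, while the log2 fold changes stayed between -4.58 and -1.82. The first of these values is that of Mup16 without knockout 4, against -3.61 with it.

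The other 4 class A genes whose groups did not overlap did not pass the edgeR test, and most of them varied widely among controls. Mup15 was at 485.5, 677.1, 7.90 and 106.1 TPM in controls and 0, 2.27, 0 and 0.42 TPM in knockouts (edgeR adjusted p = 0.0646). Mup19 was at 270.7 to 1621 TPM in controls and 0.37 to 48.2 TPM in knockouts (edgeR adjusted p = 0.0817). Mup17 was at 17.1 to 264.5 TPM in controls and 4.41 to 12.5 TPM in knockouts (edgeR adjusted p = 0.0852). Mup1, the member studied in mice as a circulating regulator of glucose metabolism, was at 68.0 to 253.2 TPM in controls and 8.52 to 48.6 TPM in knockouts (log2 fold change -2.56, edgeR adjusted p = 0.0980). Without control 3, Mup15 and Mup17 were called (edgeR adjusted p = 0.0300 and 0.0376). DESeq2 called all 4, with adjusted p of 4.49e-05 (Mup15), 2.09e-05 (Mup19), 2.42e-05 (Mup17) and 0.00223 (Mup1). With limma-voom only Mup19 was called (adjusted p = 0.0203), and Mup15, Mup17 and Mup1 were not (adjusted p = 0.326, 0.142 and 0.0532).

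Groups overlapped for the remaining class A genes, Mup8, Mup9, Mup10, Mup13, Mup14 and Mup18. Their log2 fold changes were -0.90, -2.39, -0.75, -2.25, -2.28 and 1.54, with edgeR adjusted p of 0.577, 0.288, 0.269, 0.258, 0.304 and 0.549. Knockout 4 decided some of these values. Without it Mup14 was called, at -3.94 (adjusted p = 0.0465), and the values of Mup13 and Mup8 were -3.69 and -1.65, still not called. Without control 4, Mup9 was at -1.64 and Mup18 at 2.24, not called. Mup18 was the only class A gene with a positive value, at 29.3, 10.3, 214.7 and 293.0 TPM in controls and 87.3, 104.0, 774.4 and 727.9 TPM in knockouts. Its interval, from -1.40 to 4.48, spans 0, and livers 3 and 4 of each group stood above livers 1 and 2.

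**Figure D4:**
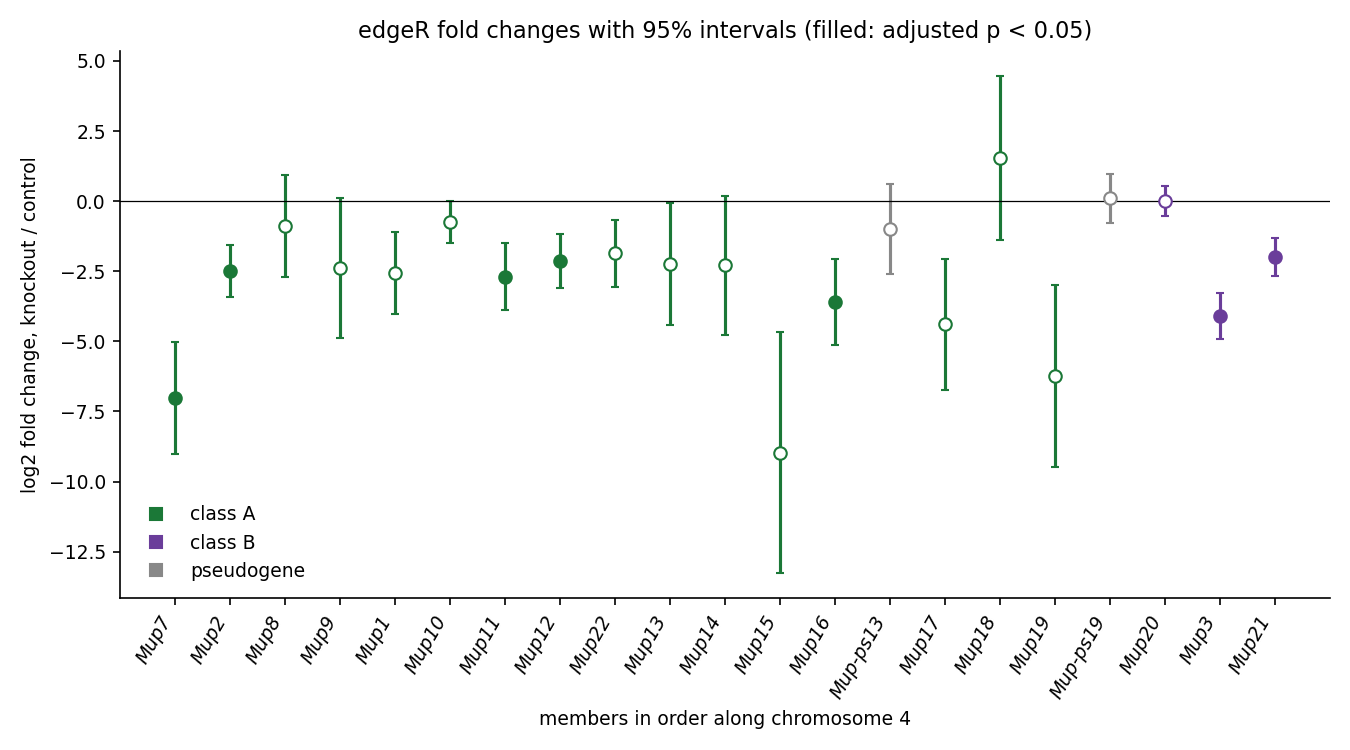
Points give the edgeR log2 fold change of knockout over control livers with its 95% interval for each of the 21 tested members, in order along chromosome 4, coloured by class and filled where the adjusted p is below 0.05. Mup20 sits at 0.01, next to Mup3 at -4.11.

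Single class A genes varied far more among control livers than their sum did. The highest control exceeded the lowest 85.7-fold for Mup15, 28.5-fold for Mup18, 23.5-fold for Mup9 and 15.5-fold for Mup17, but 1.86-fold for the class A sum. Mup22 and Mup10 varied only 1.28-fold. Controls 1 and 2 were both above controls 3 and 4 for 12 of the 21 tested members, Mup20, Mup3 and 10 class A genes, and for the class A sum and the total. They were both below them for 4 members, Mup8, Mup9, Mup10 and Mup18. For these 4 members knockouts 1 and 2 were also both below knockouts 3 and 4. Mup9, for example, was at 45.0, 55.0, 149.4 and 190.8 TPM in knockouts 1 to 4. The knockouts had that order for Mup1, Mup3, Mup11, Mup13, Mup20 and Mup22 too, whose controls had the opposite order. They also had it for Mup2, Mup12, Mup21 and Mup-ps19, whose controls had neither order. That order of the knockouts was therefore not particular to the 4 members. What these orders reflect was not tested. For Mup3, the tested member with the most specific sequence, the controls varied 1.37-fold.

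Among knockouts, knockout 4 was highest for 15 of the 21 tested members and knockout 2 lowest for 14. The class A sum varied 6.18-fold among knockouts, against 1.86-fold among controls. Cebpa in knockout 4 was 6.24 CPM, inside the range of the other knockouts. The part of any residual Cebpa in that liver's higher Mup levels was not tested.

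The pseudogenes contributed little and did not differ detectably in sum. Summed over all 27, they were at 59.7 to 111.1 TPM in controls and 43.6 to 139.7 TPM in knockouts (exact permutation test, p = 0.857). Mup-ps19 supplied 3789 of their expected counts over the 8 livers and stood at 48.6, 77.2, 106.4 and 64.7 TPM in controls and 67.3, 41.4, 136.8 and 90.0 TPM in knockouts (log2 fold change 0.10, edgeR adjusted p = 0.918). Of its 50-base windows 89.8% occur in Mup20, which has 71.5 to 227.5 times its TPM, so how much of its count belongs to Mup20 was not tested. Mup-ps13, with 44.96% of its windows in no other gene, was at 0.79 to 3.86 TPM in controls and 0 to 1.95 TPM in knockouts (edgeR adjusted p = 0.498).

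Mup-ps16 did not pass the count filter. Its summed expected count was 93.6 in the controls and 4.18 in the knockouts, and 3 knockouts had none. It lies inside the annotated span of the noncoding gene Gm13775 on the same strand. Gm13775, at 61783123 to 61801286, was the 1 gene called among the 23 tested non-Mup genes within 1 Mb of the cluster, at 9.31 ± 7.08 CPM (SD, n = 4) in controls and 0.553 ± 0.400 CPM (SD, n = 4) in knockouts (log2 fold change -4.05, edgeR adjusted p = 0.0386). Reads of the overlapping genes cannot be told apart where their exons coincide. The other 13 pseudogenes with any count had totals between 0.68 and 18.2 expected counts over the 8 livers (Mup-ps1, Mup-ps2, Mup-ps5, Mup-ps6, Mup-ps7, Mup-ps8, Mup-ps9, Mup-ps12, Mup-ps14, Mup-ps17, Mup-ps18, Mup-ps20 and Mup-ps21), and 11 had none.

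No flanking gene outside the cluster was called. Of 21 tested there, 0 passed the adjusted threshold. All 23 tested neighbours, with the 2 inside the cluster, had a median log2 fold change of -0.04. Of the 23, 5 had an unadjusted edgeR p below 0.05. Inside the cluster these were Gm13775 and the antisense gene Gm12909 (log2 fold change -1.34, edgeR adjusted p = 0.155). Outside it they were Slc31a1 (-0.29), Prpf4 (0.23) and Zfp618 (1.175). Over all genes 8.9% were lower at that threshold, and the share that were higher was not counted. Ambp, which encodes a plasma lipocalin joined to a protease inhibitor and lies within 1 Mb of the cluster, had a log2 fold change of -0.30 (edgeR adjusted p = 0.463).

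Promoter letters were read for the 14 of the 22 coding members found in the RefSeq table of 250 bases before to 50 bases after each start (GRCm38.p6). Mup20 and Mup22 had no entry there. Motifs were searched on both strands. The C/EBP motif TTGCNNAA was found in 0 of the 14 members, and 12.2% of 27025 genes hold it. Its palindrome TTGCGCAA, a special case of it, was found in 0 of 14 (0.207% of genes), the STAT motif TTCNNNGAA in 0 of 14 (9.55%) and the HNF1 motif in 0 of 14 (0.0111%), which says only that these letters are not in these windows. The glucocorticoid receptor element TGTTCT occurred in Mup3 and Mup21, and in 21.3% of all genes. The letters TATAAA occurred in Mup4 and Mup6, and in 15.7% of all genes. The letters TATATAA, searched after the promoters had been seen, occurred in 13 of 14, and in 3.84% of all genes. The following 80 bases end in those letters, in capitals (minus strand, 5′ to 3′), and are shown because they set 2 called class B genes beside 2 called class A genes and the uncalled Mup10 and Mup18.
Mup3, chr4:62087322-62087401: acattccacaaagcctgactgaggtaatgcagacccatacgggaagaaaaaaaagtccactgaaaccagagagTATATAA
Mup21, chr4:62150843-62150922: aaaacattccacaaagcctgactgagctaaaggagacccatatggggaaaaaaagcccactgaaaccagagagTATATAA
Mup11, chr4:60662391-60662470: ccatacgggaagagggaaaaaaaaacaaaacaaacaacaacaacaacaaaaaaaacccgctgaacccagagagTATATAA
Mup2, chr4:60139877-60139956: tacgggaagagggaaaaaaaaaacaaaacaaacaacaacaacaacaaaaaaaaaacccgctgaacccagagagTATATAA
Mup10, chr4:60582179-60582258: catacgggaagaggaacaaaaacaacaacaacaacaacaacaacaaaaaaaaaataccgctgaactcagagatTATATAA
Mup18, chr4:61674116-61674195: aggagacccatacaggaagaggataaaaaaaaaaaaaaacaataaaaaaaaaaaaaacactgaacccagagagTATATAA
All 4 class A windows carry a long run rich in A upstream of these letters, both in the called genes Mup11 and Mup2 and in the uncalled Mup10 and Mup18.

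Among genes tied to Mup transcription or to hormone signalling, Cebpa, the deleted gene, and Nfia and Prlr were lower. The list of 36 such genes also held growth hormone targets such as Igf1, Socs2 and Cish. Of these, 34 were tested, 3 were lower (8.82%, against 1.21% of all genes) and 0 higher, with a median log2 fold change of -0.18. That share counts Cebpa, whose fall was set by the design, so only Nfia and Prlr were found by the test. Ghr, the growth hormone receptor, had a log2 fold change of -0.14 (SE 0.11, edgeR adjusted p = 0.526). Stat5b, the main transducer of the male growth hormone pulse, was at 36.7 to 51.5 CPM in controls and 38.1 to 56.9 CPM in knockouts (log2 fold change 0.12, edgeR adjusted p = 0.706), and Stat5a had 0.34 (adjusted p = 0.213). Zhx2, a repressor of Mup genes in mouse liver, had 0.04 (adjusted p = 0.872). Rora, a nuclear receptor, was next in the list by adjusted p, at -0.45 (adjusted p = 0.109).

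Nfia, a nuclear factor I family transcription factor, was at 33.3 to 46.0 CPM in controls and 23.4 to 25.6 CPM in knockouts (log2 fold change -0.76, edgeR adjusted p = 0.00818). Prlr, the prolactin receptor, was at 54.3 to 94.8 CPM in controls and 12.0 to 33.3 CPM in knockouts (log2 fold change -1.72, edgeR adjusted p = 0.0404). Socs2 and Cish, targets of growth hormone signalling, varied widely between livers, and Igf1, another target, less so. Igf1 was at 332.2 to 553.5 CPM in controls and 382.9 to 523.6 CPM in knockouts (log2 fold change -0.17, edgeR adjusted p = 0.621). Socs2 was at 7.50, 27.7, 6.76 and 111.5 CPM in knockouts 1 to 4 and 7.57 to 34.0 CPM in controls, and Cish was at 1.66 to 34.2 CPM in knockouts, with a control mean of 32.1 CPM (edgeR adjusted p = 0.612 and 0.550).

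Bcl6, a repressor of female-type genes in male liver, was at 81.5, 10.8, 27.1 and 12.0 CPM in knockouts and 5.98 to 8.35 CPM in controls (edgeR adjusted p = 0.160). Of 38 genes with male-biased liver expression, 36 were tested, with a median log2 fold change of -0.40. Of these, 6 were lower (Susd4, Alas2, Npr2, Serpina1d, Cyp2u1 and Serpina1e), or 16.7% against 1.21% of all genes, and 0 higher. Alas2 is also in the list of erythroid genes, whose 5 tested genes all had a negative log2 fold change. Of 30 female-biased genes, 21 were tested, 3 were lower (Cyp39a1, Cyp2c40 and Cyp2c69), or 14.3% against 1.21%, and 1 was higher (Ntrk2), or 4.76% against 0.849%, with a median of 0.07. Among 13 tested genes of other lipocalins, 1 was lower (Orm1), or 7.69% against 1.21% of all genes, and 0 were higher. Orm1 was at 1413 CPM in control 2 and 61.25 to 275 CPM in the other controls. The next 3 by adjusted p, Apom, Lcn2 and Orm2, had log2 fold changes of -0.75, -4.77 and -6.04 (edgeR adjusted p = 0.152, 0.158 and 0.172). Control 2 was the highest liver for each of them, as for Orm1. Rbp4, the plasma retinol carrier of the same fold, was at 2583 to 2826 CPM in controls and 2287 to 2741 CPM in knockouts (log2 fold change -0.12, edgeR adjusted p = 0.548).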

How the data were processed

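Libraries were made from polyadenylated liver RNA with the stranded TruSeq mRNA kit (labels' protocols). Reads were handled with RSEM 1.2.22, STAR 2.5.1, Trimmomatic 0.36, Picard 1.84 and DESeq2 on mm10, per the submitters' processing notes, which give no order. The authors deposited RSEM expected counts, which divide shared reads and need not be whole, and TPM values scaled to gene length. The effective length behind TPM was set per liver, at 735.2 to 743.4 bases for Mup20 and 169.6 to 306.7 for Mup9. For Mup11 it was 475.3 to 503.6 bases in controls and 587.7 to 707.5 in knockouts, and the groups did not overlap for Mup2 and Mup19 either. TPM and CPM contrasts therefore differ. The Mup11 mean was 7.80-fold lower in knockouts in TPM and 6.50-fold in CPM, and the class A sum 4.69-fold and 4.84-fold. The deposited FPKM values were not used. Neither RSEM's strand option nor the annotation release is given in the sources used here. All 55450 identifiers matched GENCODE M21, which gave positions.

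Rounded expected counts were tested with edgeR 4.0.16 (R 4.3.3), by the robust quasi-likelihood test without covariates, with TMM scaling and filterByExpr (minimum count 10, minimum total 15), and adjusted by Benjamini-Hochberg over all genes tested at 0.05. Sums were fitted in the same table with the members replaced by them. CPM are on TMM-scaled library sizes. Exact permutation tests are two-sided. DESeq2 1.42.0 and limma 3.58.1 were alternatives, beside other scalings and filters and each liver left out. No 2 libraries of a group were the same within sampling noise. Coding sequences were aligned with Biopython 1.88, and figures drawn with matplotlib 3.10.9. Steps were tested on simulated data.

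Members and lists were chosen with earlier results of these data known. The rule for named genes was every member tested, every pseudogene with a count, genes past the threshold and the 4 of smallest adjusted p in the regulator, lipocalin, male-biased and hepatocyte lists (such as Cps1, Tdo2, Hpd, Rora, Apom, Lcn2 and Orm2), the growth hormone receptor and STAT5 genes, Cebpa and genes within 1 Mb; other genes, namely Zhx2, Bcl6, Cish, Socs2, Igf1, Rbp4, Ddx3y and Xist, and called genes of the other lists, were chosen after their values were seen. Of 12 lists, the text gives those that bear on Mup genes. The stellate cell (11 tested), endothelial (12 tested), lymphocyte and neutrophil (1 tested) and salivary, lacrimal and nasal (1 tested) lists had 0 genes called. Other values of the first 2 are given in the report. Of 5 tested erythroid genes 1, Alas2, was called lower, or 20% against 1.21% of all genes. All 5 had a negative log2 fold change (median -0.69, 3 with an unadjusted edgeR p below 0.05).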

Additional observations from a re-analysis of the deposited data

Results flagged for a closer look

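In 3 of the 62 sets of 4 livers examined, 1 liver stood apart from the other livers of its group by Dixon's criterion, which chance meets in about 1 of 20 sets. All of them were knockout 4. Mup2 was at 26.4 TPM there and at 8.99 to 11.8 TPM in the other knockouts. Mup14 was at 997.9 TPM there and at 66.4 to 130.0 TPM in the others. Mup16 was at 88.7 TPM there and at 17.0 to 17.5 TPM in the others. These class A genes share most of their short windows with other class A genes, so the 3 values are not independent of each other.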

How the results depend on the processing

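Of the settings tried, 0 gave a member called higher. Members called lower numbered 7, against 3 without a count filter, 13 with DESeq2, 11 without robust estimation and 2 to 8 with 1 liver left out. Genes called numbered 274, against 837 with DESeq2, 431 without control 2 and knockout 4, and 108 to 372 with 1 liver left out. Scaling by library size alone moved the median of all genes to 0.07 and gave 161 higher and 115 lower calls, against 113 and 161. On log2(TPM + 1) limma gave a median of 0.09 with 144 higher and 84 lower. The cause of these shifts was not tested.

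The log2 fold change of all Mup counts passed the threshold with DESeq2 (-1.17) and without control 2 and knockout 4 (-1.25), and ranged from -1.40 to -0.98 with 1 liver left out. The class A sum passed with DESeq2 (-2.29), limma-voom (-2.56), and limma on log2(TPM + 1) and log2(TPM + 0.1) (both -2.52), and ranged from -2.89 to -1.98 with 1 liver left out. The class B sum passed with DESeq2 (-0.73) and ranged from -0.90 to -0.58. The pseudogene sum, at -0.00192 on the log2 scale, turned positive with library size alone (0.0504), a filter of 1 CPM (0.00387), log2(TPM + 1) (0.00189) and log2(TPM + 0.1) (0.000814), and ranged from -0.36 to 0.23 with 1 liver left out (0.17 without control 3, 0.07 without knockout 1). The sum without Mup20 lost its call without a filter (-2.73, adjusted p = 0.106) and ranged from -3.30 to -2.45. With 1 liver left out, summed Mup TPM ranged from -1.39 to -0.96 on the log2 scale, the class B share differed by 22.6 to 28.4 percentage points, and the log2 ratio of Mup20 to Mup3 by 4.14 to 4.40, where an exact test of 3 against 4 livers cannot go below p = 0.0571. Mup20 turned negative with DESeq2 (-0.00204) and without control 3, control 4, knockout 3 or knockout 4, and ranged from -0.16 to 0.18 with 1 liver left out. Mup-ps19 turned negative with limma-voom (-0.00916) and without control 1 or knockout 3, and ranged from -0.27 to 0.33.

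Over genes, deviations of same-numbered livers correlated at 0.241, 0.0561, -0.0386 and 0.014. These values cannot tell whether the numbers mark a shared litter, cage or batch. With the number as a block, 176 genes and 5 Mup members (all lower) were called, and the sum without Mup20 lost its call (-2.97, adjusted p = 0.112). Mup15 was called in that fit (edgeR adjusted p = 0.0181), while Mup11, Mup12 and Mup16 were not. Mup9 and Mup18 stayed uncalled, at edgeR adjusted p = 0.0830 and 0.0992 with the block and 0.288 and 0.549 without it.

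Near-identical copies limit single class A values, since RSEM's division of shared reads cannot be checked from these tables. With 4 livers a group, calls near the threshold depend on single livers.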
